A study of Mus musculus with 9 samples.

Results

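The forkhead box O (FOXO) transcription factors Foxo1, Foxo3 and Foxo4, and 7 genes known as FOXO targets in heart or skeletal muscle (Fbxo32, Trim63, Pdk4, Sesn1, Bnip3, Klf15 and Txnip), were followed in mouse cardiomyocytes in which Firre, a long noncoding RNA, was overexpressed. They were chosen by name with earlier results of these data known, as were the related gene lists below. The 10 genes were taken from the count table by the Ensembl identifiers that GENCODE M21 gives these symbols on the mm10 build. All 10 were found among the 55487 gene identifiers of the table, and all 10 passed the filter on low counts. The study had 9 libraries of RNA from isolated cardiomyocytes, the contractile cells of the heart, in 3 groups of 3. The OE_LncFirre group carried an adeno-associated virus of serotype 9 (AAV9) for Firre overexpression. The VC group, labelled a negative control, carried the AAV9 control vector. The NC group is labelled a blank control, and no agent is named for it. The strain, age and sex of the mice, the promoter in the vector and the time after transduction are not stated in the labels.

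FOXO factors are the main transcriptional arm held down by insulin and growth factor signalling. The kinase Akt phosphorylates them, 14-3-3 proteins then keep them in the cytoplasm, and their target genes fall silent. When Akt activity drops, FOXO factors enter the nucleus and, in muscle, switch on ubiquitin ligases that mark contractile proteins for breakdown, autophagy genes, and genes that turn fuel use from glucose to fat. The series title has Firre act through the RNA-binding protein PTBP1 and activation of the Akt pathway, which is why mRNA of FOXO factors and targets bears on it. Phosphorylation and location of FOXO proteins are not analysed here.

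Counts assigned to genes totalled 15591542 to 22697016 per library. Firre had 62.6 to 69.7 CPM (read counts scaled to the library's TMM-adjusted total) in OE_LncFirre libraries, against 32.5 to 34.4 CPM in VC and 30.2 to 37.2 CPM in NC libraries, with no overlap. Mitochondrially encoded genes took 7.07% to 8.07% of counts in OE_LncFirre, 5.89% to 6.62% in VC and 6.23% to 6.80% in NC. The summed level of 10 cardiomyocyte markers was 59581 to 62803 CPM in OE_LncFirre, against 37463 to 40416 CPM in VC and 37819 to 39261 CPM in NC, and all 10 rose relative to VC (median log2 fold change 0.75). All 10 fibroblast markers (4573 to 5115 CPM in sum in OE_LncFirre, 9945 to 10138 CPM in VC) and all 10 endothelial markers (548 to 585 CPM in OE_LncFirre, 1323 to 1340 CPM in VC) fell, at medians of -1.16 and -1.20. Macrophage markers summed to 11.8 to 13.0 CPM in OE_LncFirre and 69.3 to 75.1 CPM in VC, all 10 fell, and 1 of them, C1qa, had no count in any OE_LncFirre library. Smooth muscle and pericyte markers summed to 2719 to 2950 CPM in OE_LncFirre and 3541 to 3985 CPM in VC. Of these 10, 9 were lower and 1, Des, was higher, at a median of -1.20. Des made up much of the sums, with a mean of 1314 CPM in OE_LncFirre and 718 CPM in VC. Epicardial and mesothelial markers summed to 117 to 125 CPM in OE_LncFirre and 418 to 435 CPM in VC, and all 10 fell. In such bulk libraries, fewer cells of a type and less RNA per cell cannot be told apart. The part of these shifts in the results on FOXO genes was not tested.

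With Firre overexpression 7 of the 10 genes rose relative to VC and 1 fell. Pdk4, Txnip, Fbxo32, Foxo3, Sesn1, Trim63 and, closest to the threshold, Klf15 were higher, and Foxo1 was lower. Foxo4 and Bnip3 did not pass the test. Over all 15633 genes tested, 27.5% were called higher and 28.4% lower (56.0% in either direction; edgeR adjusted p under 0.05), so a large share of the transcriptome differed. The median log2 fold change was 0.51 over the 10 genes and 0.00 over all genes tested. Against NC, 7 rose and 1 fell as well, with Foxo4 called in place of Klf15 (median 0.64, and -0.01 over all genes; background 27.3% higher, 28.9% lower and 56.3% in either direction). OE_LncFirre and VC libraries did not overlap for 8 of the 10 genes, 7 higher and 1 lower, where 30.8% of all genes were separated upward and 31.5% downward (62.4% in all). Against NC 6 genes lay higher and 1 lower without overlap, where the shares over all genes were 29.5% and 31.0% (60.5% in all). The comparisons with VC and NC share the OE_LncFirre libraries, so the second is no independent repeat of the first.

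**Figure D1:**
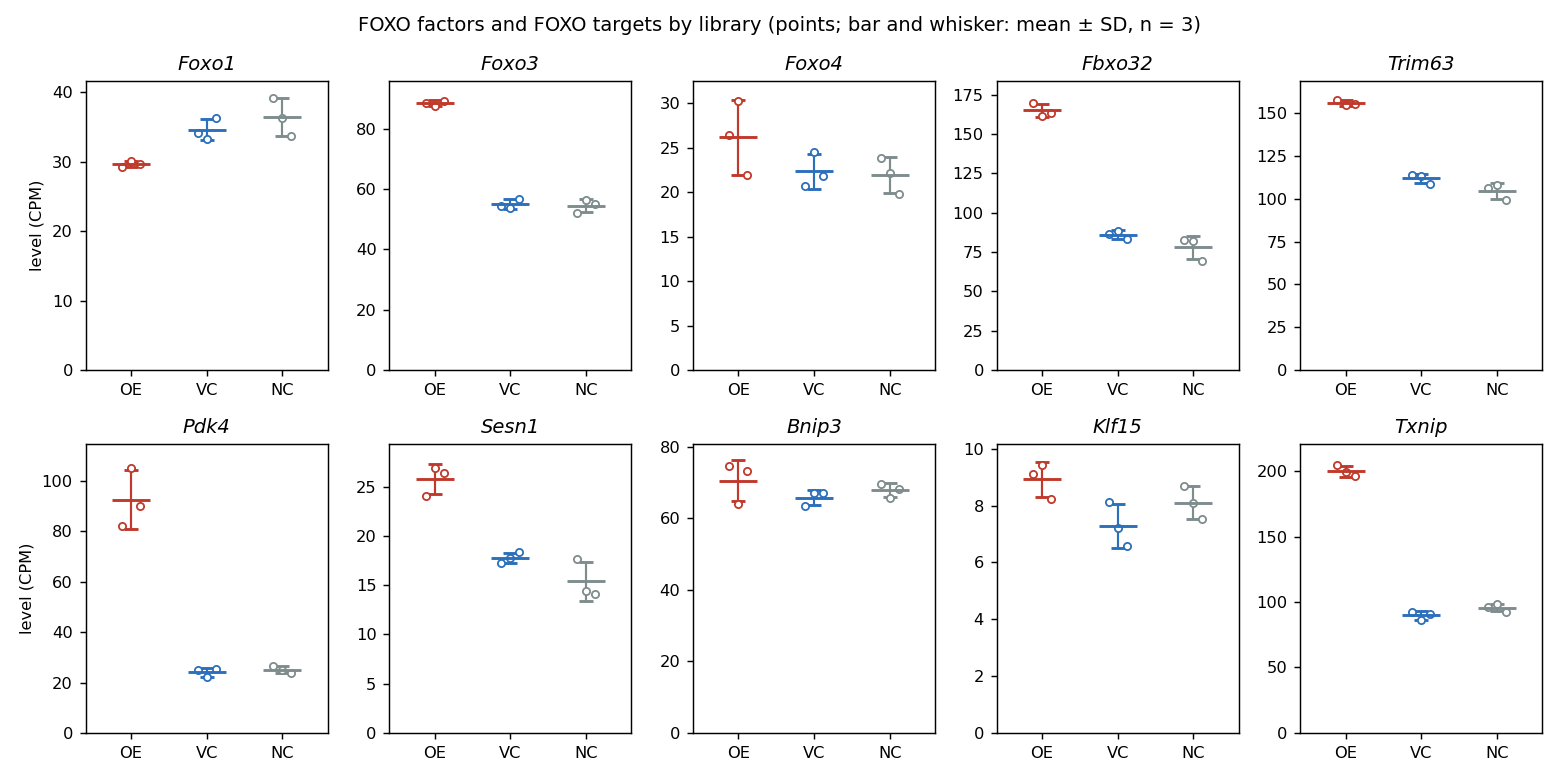
Level of each of the 10 genes in CPM (y axis, from 0) in every library of OE_LncFirre (OE), VC and NC; points are libraries, the bar is the mean and the whisker the SD of 3. Pdk4, Txnip, Fbxo32, Foxo3, Trim63 and Sesn1 sit above all 6 control libraries in OE_LncFirre, Foxo1 sits below them, and Foxo4 and Bnip3 overlap.

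Among the factors, Foxo3 rose, Foxo1 fell slightly and Foxo4 was not called against VC. Foxo3 (ENSMUSG00000048756, chromosome 10, 42181841 to 42276755, minus strand) is the FOXO factor best known for driving atrophy genes in striated muscle. Its level was 88.6, 87.5 and 89.2 CPM in OE_LncFirre, against 54.3, 53.7 and 56.8 CPM in VC and 52.0, 56.4 and 55.1 CPM in NC. The OE_LncFirre libraries lay close together and far above the 6 controls. The log2 fold change was 0.69 relative to VC (SE 0.06, adjusted p = 7.48e-12) and 0.70 relative to NC (SE 0.06, adjusted p = 6.47e-12).

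Foxo1 (ENSMUSG00000044167, chromosome 3, 52268336 to 52353221, plus strand) is known for its roles in vascular growth and in the metabolic response to fasting. It had 29.3, 30.1 and 29.7 CPM in OE_LncFirre, against 34.2, 33.3 and 36.3 CPM in VC and 39.1, 36.3 and 33.7 CPM in NC. The OE_LncFirre values were below every control value, by a small margin. On the log2 scale the change was -0.22 relative to VC (SE 0.07, adjusted p = 9.55e-03) and -0.29 relative to NC (SE 0.07, adjusted p = 8.94e-04). Without VC replicate 3 the value against VC was -0.19 and was no longer called (adjusted p = 0.0570, with a range over the alternatives of 0.00149 to 0.0570). All 10 endothelial markers, from a cell type in which Foxo1 is well expressed, fell in the same libraries at a median of -1.20, and their part in the Foxo1 result was not tested.

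Foxo4 (ENSMUSG00000042903, chromosome X, 101254528 to 101260873, plus strand) is the X-linked member of the family. Its level was 26.4, 30.3 and 21.9 CPM in OE_LncFirre, against 20.7, 24.6 and 21.8 CPM in VC and 23.9, 22.2 and 19.8 CPM in NC. It was the most uneven of the 10 genes within OE_LncFirre, with a coefficient of variation of 16.1%, and the groups overlapped. edgeR gave a log2 fold change of 0.23 relative to VC (SE 0.10, adjusted p = 0.0524, range over the alternatives 0.00474 to 0.362) and 0.26 relative to NC (SE 0.10, adjusted p = 0.0326, range 0.00237 to 0.232). The call against NC was lost under 6 of 16 alternatives. It was lost without OE_LncFirre replicate 2 (0.15), which had the highest level. It was also lost without OE_LncFirre replicate 1 (0.26) and without NC replicates 2 (0.27) and 3 (0.19). Against VC, Foxo4 gained a call under 6 of 16 alternatives. It was called without OE_LncFirre replicate 3 (0.35), VC replicate 2 (0.31) or NC replicate 3 (0.23). It was also called without the low-count filter (0.23), with a replicate block (0.22) and in the 2-group fit (0.23).

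The 3 factors therefore shifted against one another. The log2 ratio of Foxo1 to Foxo3 counts within a library was -1.59, -1.54 and -1.59 in OE_LncFirre, against -0.67, -0.69 and -0.65 in VC and -0.41, -0.63 and -0.71 in NC. The mean difference from the 6 control libraries was -0.95. Foxo1 also fell relative to Foxo4, by 0.49, and the ratio of Foxo3 to Foxo4 rose by 0.46. In each ratio the OE_LncFirre libraries lay outside the range of the 6 controls, narrowly so for Foxo1 to Foxo4, where the highest OE_LncFirre value was 0.4385 and the lowest control 0.4393. An exact two-sided permutation test over libraries gave p = 0.0238 for each, the smallest that 3 against 6 allows. It stayed at 0.0238 after Benjamini-Hochberg adjustment over the 4 ratios tested. For Foxo1 to Foxo3 this p was fixed by the levels above and adds no support. Every OE_LncFirre library lay above all 6 controls for Foxo3 and below them for Foxo1. The 3 FOXO ratios are not 3 separate results, because any 2 of them fix the other. Such ratios do not depend on how libraries are scaled.

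Per kilobase of exon, which allows levels of different genes to be compared, Foxo3 was the most abundant FOXO mRNA in each group. It made up 40.0% ± 2.91 of the summed level of Foxo1, Foxo3, Foxo4 and Foxo6 in OE_LncFirre, 31.8% ± 0.477 in VC and 32.8% ± 0.926 in NC (SD, n = 3). The share of Foxo1 was 11.7% ± 0.675 in OE_LncFirre, 17.5% ± 0.490 in VC and 19.1% ± 1.54 in NC. In VC the levels of Foxo3 (7.26 ± 0.215 CPM per kb) and Foxo4 (6.41 ± 0.576) differed by little more than their spread. The same held in NC (7.20 ± 0.295 and 6.30 ± 0.591). In OE_LncFirre the levels of Foxo3 and Foxo4 were 11.7 ± 0.113 and 7.52 ± 1.21 CPM per kb. Foxo6, the family member that is not retained in the cytoplasm in the same way, rose by 0.38 on the log2 scale relative to VC (SE 0.11, adjusted p = 4.61e-03). The summed level of the 4 genes was 29.3 ± 1.86 CPM per kb in OE_LncFirre, 22.8 ± 0.573 in VC and 22.0 ± 0.520 in NC.

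**Figure D2:**
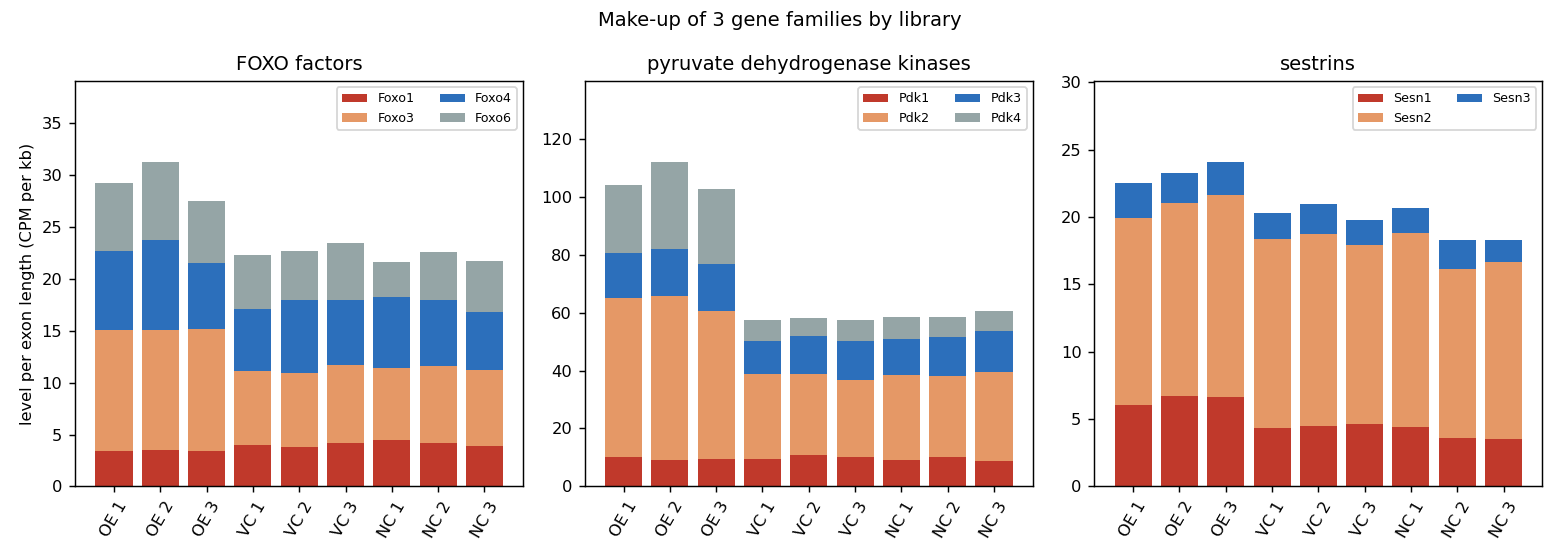
Level per exon length (CPM per kb, stacked bars from 0) of the FOXO factors, the pyruvate dehydrogenase kinases and the sestrins in each of the 9 libraries, OE_LncFirre (OE) first. Foxo3 and Pdk4 widen in the OE_LncFirre bars, while the Foxo1 segment is slightly shorter and the Pdk1 segment stays near its control height.

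For each factor, the genes with the most similar profile were those with the smallest Euclidean distance over the 9 libraries, each profile being log2(CPM + 0.5) centred on its own mean. The search covered 10586 genes with a mean of at least 5 CPM and an established symbol. Foxo3 was closest to Prkag2, a regulatory subunit of AMP-activated kinase (distance 0.11), to Atf7ip (0.11) and to the cytosolic malate dehydrogenase gene Mdh1 (0.11). Mdh1 averaged 845 ± 10.8 CPM in OE_LncFirre, 505 ± 6.74 CPM in VC and 508 ± 18.8 CPM in NC. Foxo1 was closest to Cchcr1, to Nid2, a basement membrane protein gene, and to the homeobox gene Meis2, at distances of 0.12 each. Foxo4, whose libraries were uneven, had looser neighbours in Zfp626 (0.22), As3mt (0.22) and Zbtb24 (0.24).

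The targets fall into ubiquitin ligases (Fbxo32 and Trim63), fuel and redox control (Pdk4, Klf15 and Txnip) and stress and mitochondrial quality (Sesn1 and Bnip3). In some of them, DNA just upstream of the start carries the letters that FOXO proteins bind. RefSeq windows of the GRCm38.p6 build, from 250 bases before to 50 after an annotated start, were held for 8 of the 10 genes, in 9 windows because Sesn1 has a pair of starts; Foxo4 and Fbxo32 had no entry. The FOXO element GTAAACA, sought on both strands, occurred in 3 of these windows (Txnip, Trim63 and 1 of Sesn1) and in 3.65% of 32851 windows of the same length over all genes. These 3 are shown because they hold the element, and Pdk4 because it had the largest rise. Capitals mark GTAAACA or its complement TGTTTAC in Txnip, Trim63 and Sesn1, and also the glucocorticoid receptor hexamer TGTTCT in Trim63 and, in Txnip, a pair of CACGAG hexamers with 5 bases between them. Each line runs 5′ to 3′ on the strand of the gene.
Txnip, chr3:96557707-96558006, plus strand: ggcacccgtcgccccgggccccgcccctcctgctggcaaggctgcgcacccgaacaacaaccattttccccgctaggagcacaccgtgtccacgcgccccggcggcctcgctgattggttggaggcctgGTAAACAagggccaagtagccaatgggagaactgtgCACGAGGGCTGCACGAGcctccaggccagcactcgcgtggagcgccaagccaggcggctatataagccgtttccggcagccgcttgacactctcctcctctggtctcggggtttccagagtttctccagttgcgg
Trim63, chr4:134314870-134315169, plus strand: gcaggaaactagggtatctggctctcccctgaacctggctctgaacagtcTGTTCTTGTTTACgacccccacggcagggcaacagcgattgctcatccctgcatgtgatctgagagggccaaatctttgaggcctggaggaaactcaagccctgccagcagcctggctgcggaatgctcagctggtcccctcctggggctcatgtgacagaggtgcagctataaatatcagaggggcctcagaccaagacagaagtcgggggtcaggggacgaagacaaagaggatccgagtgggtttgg
Sesn1, chr10:41810324-41810623, plus strand: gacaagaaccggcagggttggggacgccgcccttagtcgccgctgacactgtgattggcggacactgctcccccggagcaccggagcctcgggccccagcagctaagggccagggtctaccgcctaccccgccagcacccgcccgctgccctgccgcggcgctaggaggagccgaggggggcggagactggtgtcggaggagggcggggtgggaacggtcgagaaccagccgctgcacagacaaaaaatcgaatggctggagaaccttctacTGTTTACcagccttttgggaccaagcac
Pdk4, chr6:5496229-5496528, minus strand: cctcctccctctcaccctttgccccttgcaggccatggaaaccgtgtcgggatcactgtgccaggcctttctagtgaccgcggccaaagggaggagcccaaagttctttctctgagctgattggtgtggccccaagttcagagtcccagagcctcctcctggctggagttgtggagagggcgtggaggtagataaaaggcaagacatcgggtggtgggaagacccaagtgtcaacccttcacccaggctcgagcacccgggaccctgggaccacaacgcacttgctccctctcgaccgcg

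Counted from the start, the FOXO letters lie at -121 to -115 in Txnip, at -194 to -188 on the opposite strand in Trim63, and at 23 to 29, past the start and on the opposite strand, in Sesn1. In Trim63 the hexamer TGTTCT at -200 to -195 directly adjoins them. TGTTCT was in 1 of the 9 windows and in 19.0% of all windows. The Txnip pair at -85 to -69 resembles the carbohydrate response elements through which glucose is known to raise Txnip. The pair was spelled from the Txnip window itself, so that Txnip alone among all windows held it says little. The E-box CACGTG, whose letters read the same on both strands, was in the Klf15 window at 3 places and in the Bnip3 window at 1, and in 7.15% of all windows. The Pdk4 window held none of these letters, which says nothing of sites elsewhere. The common CCAAT box was in 7 of the 9 windows, that of Pdk4 included, and in 37.4% of all windows. A match of letters is a description and not evidence that a factor was bound.

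The ligase genes Fbxo32 and Trim63 both rose, Fbxo32 by more. Fbxo32 (ENSMUSG00000022358, chromosome 15, 58175879 to 58214932, minus strand) encodes atrogin-1, a ubiquitin ligase adaptor raised in muscle wasting. It had 170, 162 and 164 CPM in OE_LncFirre, against 86.4, 88.7 and 83.3 CPM in VC and 82.4, 82.1 and 69.4 CPM in NC. Each OE_LncFirre library was well above the highest control. The log2 fold change was 0.94 relative to VC (SE 0.06, adjusted p = 1.24e-14) and 1.08 relative to NC (SE 0.06, adjusted p = 5.39e-16).

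Trim63 (ENSMUSG00000028834, chromosome 4, 134315120 to 134329629, plus strand) encodes MuRF1, a ligase of the sarcomere that marks myosin and other contractile proteins. It had 158, 155 and 155 CPM in OE_LncFirre, against 114, 113 and 109 CPM in VC and 106, 108 and 98.9 CPM in NC, with no overlap. On the log2 scale the change was 0.48 relative to VC (SE 0.05, adjusted p = 1.44e-09) and 0.58 relative to NC (SE 0.05, adjusted p = 3.29e-11). The difference between the ligases was itself tested. The log2 ratio of Fbxo32 to Trim63 counts was 0.11, 0.06 and 0.07 in OE_LncFirre, against -0.39, -0.35 and -0.38 in VC and -0.37, -0.40 and -0.51 in NC. The mean difference from the 6 controls was 0.48 (exact two-sided permutation p = 0.0238, and 0.0238 adjusted over the 4 ratios). All 10 cardiomyocyte markers rose in the same libraries, at a median of 0.75 relative to VC, a value between those of the ligases.

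Related ligases went the same way in part. Of 14 other muscle ubiquitin ligases and regulators tested 8 rose and 2 fell relative to VC, at a median of 0.34 (27.5% and 28.4% of all genes). The 3 with the smallest p all rose. Trim54, which encodes the MuRF relative MuRF3, rose by 1.38 (SE 0.07), to 111 ± 4.80 CPM in OE_LncFirre, against 42.6 ± 4.09 CPM in VC. Fbxo40, a muscle F-box gene that acts on insulin receptor substrate 1, rose by 1.13 (SE 0.06), and Asb2, whose product targets filamins, by 1.06 (SE 0.06; highest adjusted p of the 3 = 1.98e-15, SD, n = 3). Among the MuRF genes Trim63 had 20.8% ± 0.684 of the summed level per kilobase in OE_LncFirre, 26.4% ± 0.608 in VC and 25.2% ± 1.28 in NC, while the share of Trim54 was 29.2% ± 0.566 in OE_LncFirre, 19.9% ± 1.83 in VC and 20.2% ± 1.77 in NC.

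Pdk4 had the highest fold change of the 10 genes. Pdk4 (ENSMUSG00000019577, chromosome 6, 5483351 to 5496309, minus strand) encodes a kinase that switches off pyruvate dehydrogenase and so spares glucose, and FOXO factors and PPAR receptors are both known to raise it. Its level was 82.2, 105 and 90.2 CPM in OE_LncFirre, against 25.1, 22.0 and 25.2 CPM in VC and 26.5, 24.9 and 23.8 CPM in NC. Even the lowest OE_LncFirre library was far above the highest control. edgeR gave a log2 fold change of 1.94 relative to VC (SE 0.08, adjusted p = 5.31e-17) and 1.89 relative to NC (SE 0.08, adjusted p = 1.12e-16), above 99.0% of all genes tested in each comparison.

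Pdk4 thereby took a larger share of its family. Of the summed level per kilobase of Pdk1 to Pdk4, Pdk4 held 24.8% ± 2.13 in OE_LncFirre, 11.9% ± 0.977 in VC and 12.1% ± 0.843 in NC. Pdk2, the most abundant isoform in each group, also rose, by 0.96 (SE 0.05, adjusted p = 1.90e-15), and held 51.1% ± 1.46 in OE_LncFirre and 48.4% ± 2.33 in VC (SD, n = 3). Pdk1, a hypoxia-induced isoform, was not called (-0.11, SE 0.06, adjusted p = 0.152), and its share was 8.96% ± 0.833 in OE_LncFirre and 17.7% ± 0.872 in VC.
At the mRNA level, most genes of the enzyme that these kinases hold down, and of its regulators, moved in the same direction. Of the 11 genes of pyruvate dehydrogenase and its regulators other than Pdk4, 10 rose and none fell relative to VC, at a median of 0.63. Over all genes 27.5% were called higher and 28.4% lower. The list holds the kinase genes Pdk1, Pdk2 and Pdk3 as well as subunits of the enzyme. All 10 cardiomyocyte markers rose in the same libraries, at a median of 0.75. Pdhb, a subunit of the first enzyme of the complex, rose by 0.999 (SE 0.05) and Pdhx, which anchors the third enzyme, by 1.01 (SE 0.06; adjusted p = 3.45e-17 and 2.05e-15). Among 15 tested PPAR targets 14 rose and 0 fell (median 0.95). The fatty acid transporter gene Cd36 rose by 1.01 (SE 0.05), Fabp3, the heart fatty acid binding protein gene, by 1.39 (SE 0.06), and the thioesterase gene Acot2 by 1.35 (SE 0.08). Against NC, 12 of the 15 PPAR targets rose and none fell, where 27.3% of all genes were called higher and 28.9% lower.

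Txnip had the next highest rise relative to VC. Txnip (ENSMUSG00000038393, chromosome 3, 96557957 to 96561883, plus strand) encodes thioredoxin-interacting protein, which binds thioredoxin and limits glucose uptake. It had 204, 199 and 196 CPM in OE_LncFirre, against 92.3, 86.1 and 90.9 CPM in VC and 96.3, 98.2 and 92.5 CPM in NC. Libraries of a group lay close together and the groups far apart, with coefficients of variation of 2.16% in OE_LncFirre, 3.60% in VC and 3.02% in NC. The log2 fold change was 1.15 relative to VC (SE 0.05, adjusted p = 2.66e-18) and 1.06 relative to NC (SE 0.05, adjusted p = 1.91e-17). An antisense gene, Gm15441, shares 606 exon bases (19.4%) with Txnip, and had 27 counts in all OE_LncFirre libraries together, 24 in VC and 10 in NC.

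Of 11 other arrestin-domain, thioredoxin and glucose-sensing genes 6 rose and 1 fell relative to VC (median 0.18), where 27.5% of all genes rose, 28.4% fell and 56.0% were called in all. The arrestin-domain gene Arrdc3 rose by 0.83 (SE 0.07), to 92.4 ± 7.85 CPM in OE_LncFirre, against 51.7 ± 5.71 CPM in VC. The mitochondrial thioredoxin gene Txn2 rose by 0.61 (SE 0.06) and the mitochondrial thioredoxin reductase gene Txnrd2 by 0.75 (SE 0.09). The highest edgeR adjusted p of these 3 genes was 3.73e-08 (values after ± are SD, n = 3). Txn1, the cytosolic thioredoxin that Txnip binds, was not called relative to VC (-0.05, SE 0.06, adjusted p = 0.513). Relative to NC, Txn1 was called lower (-0.16, SE 0.06, adjusted p = 0.0310). Per kilobase, Txnip held 72.9% ± 1.34 of the summed level of the 5 arrestin-domain genes in OE_LncFirre, 63.9% ± 1.68 in VC and 64.6% ± 1.06 in NC.

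Klf15, the least abundant of the 10 genes per kilobase, was called against VC and not against NC. Klf15 (ENSMUSG00000030087, chromosome 6, 90462576 to 90475238, plus strand) encodes a zinc-finger factor of amino acid and lipid use that glucocorticoids induce and that restrains cardiac growth. It had 9.11, 9.44 and 8.25 CPM in OE_LncFirre, against 8.12, 7.20 and 6.58 CPM in VC and 8.68, 8.09 and 7.54 CPM in NC. The OE_LncFirre and VC libraries were separated only narrowly, and the OE_LncFirre and NC libraries overlapped. On the log2 scale the change was 0.29 relative to VC (SE 0.13, adjusted p = 0.0469, range over the alternatives 0.0297 to 0.183) and 0.14 relative to NC (SE 0.13, adjusted p = 0.342). The call against VC was lost under 8 of 16 alternatives, among them DESeq2 (0.29) and library totals alone (0.24). It was also lost without OE_LncFirre replicate 1 (0.28) or 2 (0.25), VC replicate 2 (0.28) or 3 (0.22), or NC replicate 2 (0.29).

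Of 13 tested KLF15 targets and other Kruppel-like factors 7 rose and 2 fell relative to VC (median 0.27). Over all genes 27.5% were called higher and 28.4% lower. The lipid genes Acsl1 and Lpl rose by 1.06 (SE 0.05) and 0.62 (SE 0.05), and Klf4, a factor of endothelial and smooth muscle cells among others, fell by 1.01 (SE 0.06; highest adjusted p of the 3 = 2.16e-12). Among the glucocorticoid receptor gene and its targets 2 of 14 rose and 7 fell (median -0.15), beside the same shares over all genes. The 3 with the smallest p were all among those that fell. They were Sgk1 at -1.40 (SE 0.05), the metallothionein gene Mt2 at -0.81 (SE 0.06) and Cebpd at -0.57 (SE 0.06, highest adjusted p = 1.98e-09). The receptor gene Nr3c1 had a value of -0.05 (adjusted p = 0.437). Fibroblast and endothelial markers fell in the same libraries, at medians of -1.16 and -1.20.

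Sesn1 rose, and Bnip3 was not called. Sesn1 (ENSMUSG00000038332, chromosome 10, 41809935 to 41908424, plus strand) encodes sestrin 1, a stress-induced protein that restrains mTOR complex 1. It had 24.1, 26.9 and 26.4 CPM in OE_LncFirre, against 17.2, 17.7 and 18.3 CPM in VC and 17.6, 14.4 and 14.1 CPM in NC, with no overlap. edgeR gave a log2 fold change of 0.54 relative to VC (SE 0.09, adjusted p = 5.34e-06) and 0.75 relative to NC (SE 0.09, adjusted p = 2.73e-08). Its relatives differed in level. Sesn2 was the most abundant sestrin per kilobase, with 61.7% ± 0.441 of the sum in OE_LncFirre and 68.3% ± 1.03 in VC, and was not called (0.05, adjusted p = 0.533). Sesn1 had 27.8% ± 1.10 in OE_LncFirre and 21.9% ± 1.16 in VC. Sesn3 rose by 0.28 (SE 0.09, adjusted p = 7.63e-03).

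Bnip3 (ENSMUSG00000078566, chromosome 7, 138890836 to 138909519, minus strand) encodes a mitochondrial receptor for mitophagy that hypoxia and FOXO3 are known to induce. It had 74.5, 63.9 and 73.1 CPM in OE_LncFirre, against 63.4, 66.9 and 67.0 CPM in VC and 69.5, 65.6 and 68.2 CPM in NC. OE_LncFirre replicate 2 lay within the control range and the other two above it. The log2 fold change was 0.10 relative to VC (SE 0.06, adjusted p = 0.169, with ±1.96 SE from -0.02 to 0.22) and 0.06 relative to NC (SE 0.06, adjusted p = 0.451, from -0.06 to 0.18). Without OE_LncFirre replicate 2 it was 0.17 relative to VC and passed (adjusted p = 0.0223, with a range over the alternatives of 0.0223 to 0.559). An antisense gene, Gm45507, shares 504 exon bases with Bnip3 and had 5 counts in OE_LncFirre, 2 in VC and 0 in NC.

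Mitophagy genes other than Bnip3 rose in 7 of 10 and fell in 1 relative to VC (median 0.19). Calcoco1, a receptor of selective autophagy that is not particular to mitophagy, rose by 0.69 (SE 0.06). Bcl2l13 rose by 0.37 (SE 0.05, higher adjusted p of the pair = 9.07e-07). Of 22 autophagy genes 8 rose and 4 fell (median 0.06), where 27.5% of all genes rose and 28.4% fell. The cargo receptor gene Sqstm1 rose by 0.50 (SE 0.04) and the starter kinase gene Ulk1 by 0.32 (SE 0.05), while the lysosomal protease gene Ctsl fell by 0.47 (SE 0.04). Gabarapl1, known as a FOXO target and named after its value was seen, fell by 0.36 (SE 0.06, adjusted p = 4.12e-06). Of 16 hypoxia genes 2 rose and 9 fell (median -0.18), with Ndrg1 at -0.87 (SE 0.06), the oxygen-sensitive factor gene Epas1 at -0.56 (SE 0.05) and Pfkfb3 at -0.65 (SE 0.07).

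Beyond the 7 targets, more genes of the wider set of reported FOXO targets rose than fell. Of 30 genes, namely Foxo6 and 29 reported targets of several tissues, 27 were tested; 16 rose and 3 fell relative to VC, at a median of 0.26, and 14 rose and 3 fell relative to NC, at a median of 0.23. Over all genes 56.0% were called relative to VC (27.5% higher, 28.4% lower) and 56.3% relative to NC (27.3% higher, 28.9% lower). The antioxidant genes Cat and Prdx3 rose by 0.80 (SE 0.05) and 0.78 (SE 0.05). Cat had 145 ± 0.523 CPM in OE_LncFirre, against 83.6 ± 0.400 CPM in VC. The repressor gene Bcl6 rose by 0.76 (SE 0.06; highest adjusted p of the 3 = 8.58e-12, SD, n = 3). The 3 that fell were Irs2 (-0.37), an insulin receptor substrate, the cell death gene Bcl2l11 (-0.36) and the mTOR inhibitor gene Ddit4 (-0.28), named after their values were seen. The liver targets Igfbp1, Pck1 and G6pc had too few counts to test, with 0, 10 and 0 counts over the OE_LncFirre group and 3, 18 and 0 over VC. Genes of p53 and its targets, a group that shares Cdkn1a with this list, rose in 7 of 13 and fell in 4 (median 0.29), with Perp at 0.93 (SE 0.05), Cdkn1a at 0.49 (SE 0.05) and Ccng1 at 0.48 (SE 0.05).

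**Figure D3:**
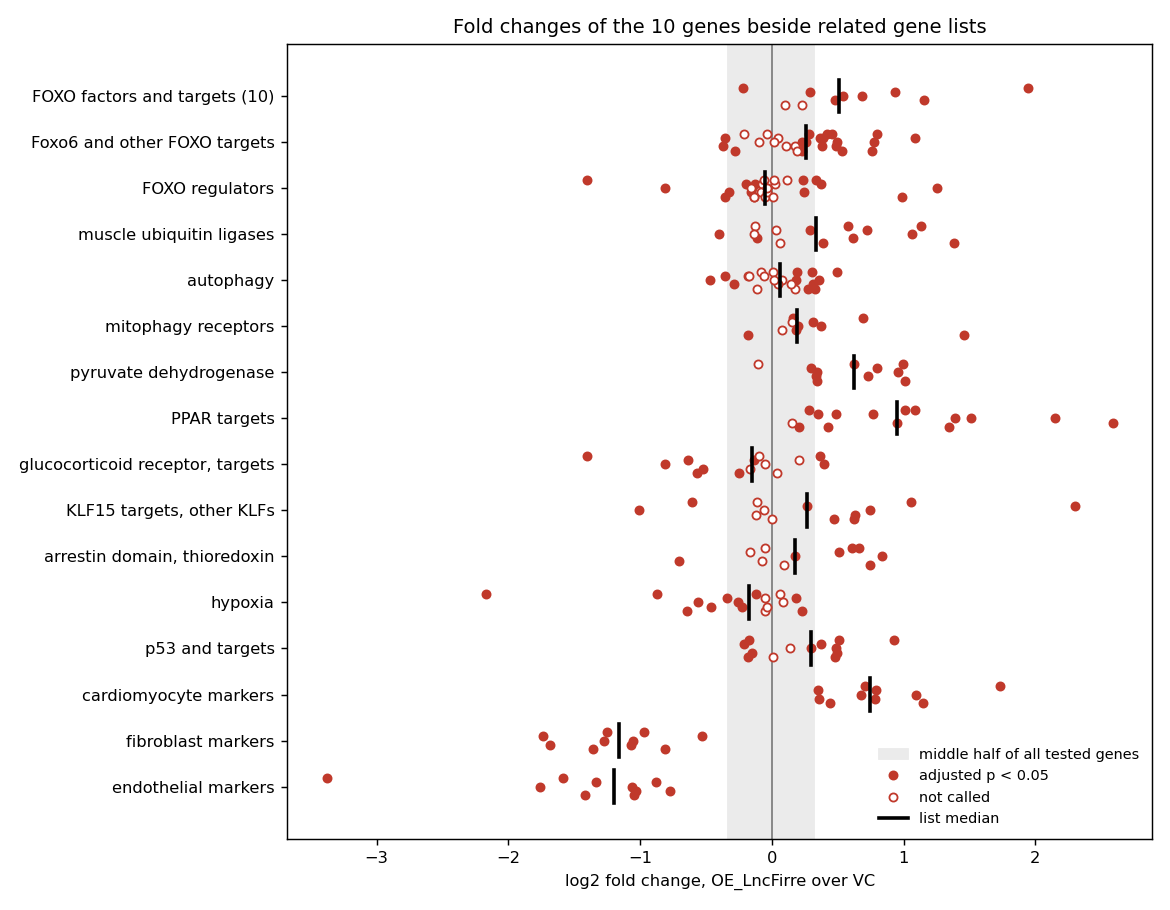
Log2 fold change of OE_LncFirre over VC (x axis) for each tested gene of the 10, of the related lists and of 3 cell type marker lists; filled points passed at an adjusted p under 0.05, open points did not, black bars are list medians and the grey band spans the interquartile range of all genes tested. The median of the 10 genes is 0.51, that of PPAR targets 0.95 and that of cardiomyocyte markers 0.75.

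Genes that act on FOXO proteins were called about as often as other genes. Of 28 genes whose products modify or carry FOXO proteins or act on Akt, 6 rose and 9 fell relative to VC (median -0.05; 27.5% and 28.4% of all genes), and 7 rose and 7 fell relative to NC. Akt1 was not called (-0.07, adjusted p = 0.212), and Akt2 rose by 0.33 (SE 0.05, adjusted p = 6.65e-07). Sgk1, a kinase related to Akt that phosphorylates FOXO3 in particular, had 51.4 ± 2.27 CPM in OE_LncFirre, against 136 ± 1.44 CPM in VC and 142 ± 2.54 CPM in NC (SD, n = 3). Its log2 fold change was -1.40 relative to VC (SE 0.05, adjusted p = 7.21e-20). Prkaa2, the AMP-activated kinase subunit of heart and skeletal muscle, rose by 1.26 (SE 0.06) and the mitochondrial deacetylase gene Sirt3 by 0.99 (SE 0.10). Of the 6 14-3-3 genes among these 28, Ywhab, Ywhah, Ywhaq and Ywhaz fell, by 0.20, 0.13, 0.36 and 0.33 (highest adjusted p = 0.0238). Ywhae and Ywhag were not called. These 6 were singled out after their values were seen. Relative to NC, the genes called higher and lower were 9 and 2 of the 14 other ligases, 10 and 0 of the 11 pyruvate dehydrogenase genes, 4 and 2 of the 11 arrestin-domain and thioredoxin genes, and 7 and 2 of the 13 KLF15 targets and relatives. For the remaining lists they were 2 and 7 of the 14 glucocorticoid genes, 6 and 1 of the 10 mitophagy genes, 7 and 5 of the 22 autophagy genes, 2 and 9 of the 16 hypoxia genes, and 8 and 3 of the 13 p53 genes. Relative to NC 27.3% of all genes were called higher and 28.9% lower.

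None of the 10 genes was called for VC against NC by edgeR, which called 0.0576% of all genes (0.00640% higher and 0.0512% lower). DESeq2 called none of them either, but gave no adjusted p for 5 of the 10. The 2 genes Fbxo32 and Sesn1 had an unadjusted p under 0.05, with values of 0.14 (SE 0.06) and 0.21 (SE 0.09). VC and NC libraries did not overlap for Fbxo32 and Trim63, which were higher in VC, and for Txnip, which was lower in VC (-0.09), where 13.1% of all genes were so separated (6.21% higher and 6.87% lower). No gene of the 12 related lists was called between VC and NC either. The values for the 10 genes ran from -0.15 for Klf15 to 0.21 for Sesn1.

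**Figure D4:**
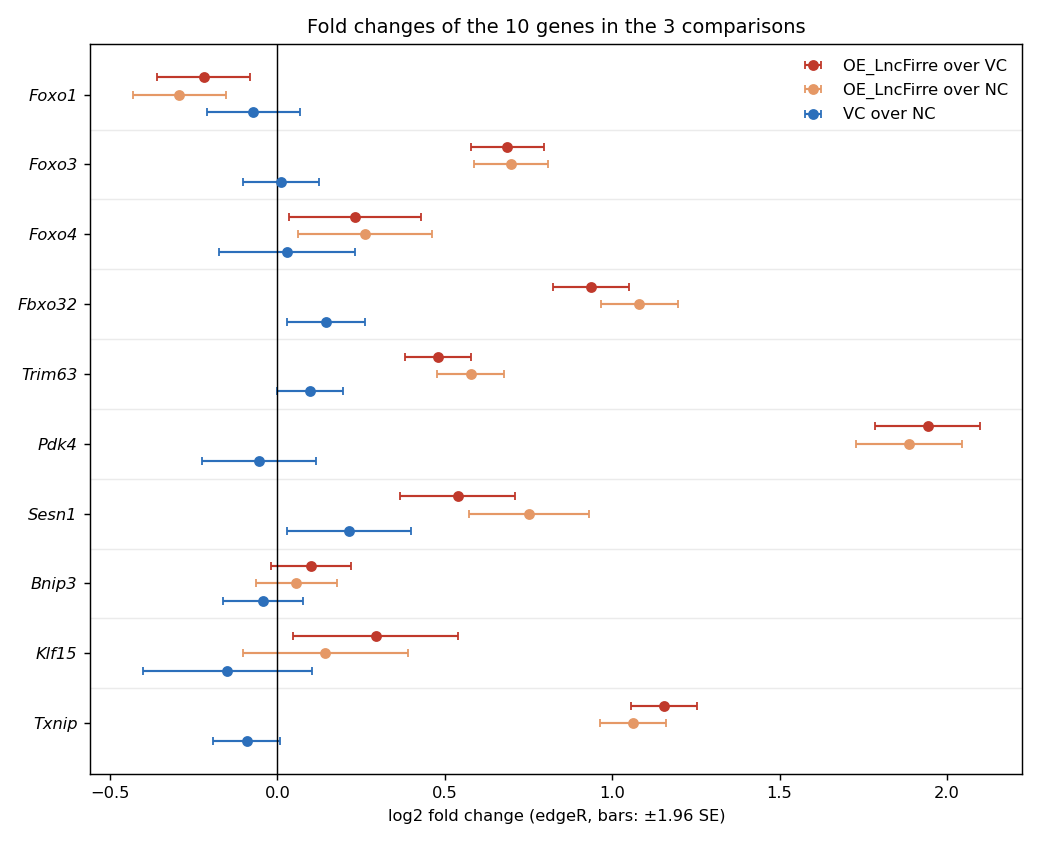
Log2 fold change (x axis) of each of the 10 genes for OE_LncFirre over VC, OE_LncFirre over NC and VC over NC, top to bottom within a gene; bars span 1.96 SE to each side. Pdk4 stands at 1.94 and 1.89 in the OE_LncFirre comparisons, Foxo1 at -0.22 and -0.29, and the VC over NC values lie between -0.15 and 0.21.

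The order of levels per kilobase differed between the groups. In VC it was Trim63 (39.3 ± 0.935 CPM per kb), Bnip3 (29.0 ± 0.913), Txnip (28.8 ± 1.04), Fbxo32 (12.3 ± 0.386), Foxo3 (7.26 ± 0.215), Pdk4 (6.87 ± 0.518), Foxo4 (6.41 ± 0.576), Sesn1 (4.46 ± 0.138), Foxo1 (3.99 ± 0.176) and Klf15 (2.62 ± 0.277; SD, n = 3). Bnip3 and Txnip, Foxo3 and Pdk4, and Pdk4 and Foxo4 differed by less than their spread. In OE_LncFirre Txnip came first (64.0 ± 1.38 CPM per kb), before Trim63 (54.8 ± 0.559) and Bnip3 (31.1 ± 2.55). Pdk4 (26.4 ± 3.32) and Fbxo32 (23.6 ± 0.623) followed and differed by less than the spread of Pdk4, as did Foxo4 (7.52 ± 1.21) and Sesn1 (6.47 ± 0.372) by less than that of Foxo4. The lowest in OE_LncFirre were Foxo1 (3.43 ± 0.0444) and Klf15 (3.20 ± 0.219). The order in NC was that in VC except that Txnip (30.6 ± 0.926) stood before Bnip3 (29.9 ± 0.875) and Foxo1 (4.20 ± 0.312) before Sesn1 (3.86 ± 0.490), both by less than their spread. Over all 9 libraries Trim63 and Txnip lay above 93.3% and 92.8% of the genes tested per kilobase, and Klf15 and Foxo1 above 41.0% and 47.4%.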

How the data were processed

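RNA was sequenced from 9 libraries in 3 groups, taken from the sample titles. Per the labels' protocols, total RNA was depleted of ribosomal RNA and made into directional libraries, although another label names polyA RNA. The submitters' processing notes list FastQC, Trimmomatic, STAR, featureCounts and mm10, with no versions. The authors deposited raw counts per gene, not normalized, and 5 closing lines of unassigned reads (16.3% to 17.4% of counts per library) were left out of library sizes and tests. Whether counting used the strand is not stated, so genes with an antisense partner (Foxo1, Fbxo32, Bnip3 and Txnip) are uncertain to that extent.

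All 9 libraries entered a single edgeR quasi-likelihood fit (edgeR 4.0.16, R 4.3.3, robust, 6 residual degrees of freedom) with TMM scaling and filterByExpr (minimum count 10, minimum total 15). Benjamini-Hochberg adjustment ran over 15633 genes, with a threshold of 0.05, and the SE is the log2 fold change, without its sign, divided by the root of F. Levels are CPM, and CPM per kilobase uses the union of GENCODE M21 exons, where 55227 of 55487 identifiers matched. Ratios added 0.5 counts and were tested by exact permutation (scipy 1.17.1). The scripts were tested on simulated counts. Alternatives were other scalings, no filter, DESeq2 1.42.0, a 2-group fit, a replicate block and each library left out. The genes, the 18 lists and the tests were chosen with earlier results of these data known. Named genes were the 10, Firre, Akt1 and Akt2, the 3 list members with the smallest p, the 3 nearest profiles per factor, and the few said to be picked after their values were seen or as family relatives, and Nr3c1 and Txn1 for their roles; a few genes that this rule names are not reported here. The titles call replicates biological but do not name animals or cultures, so p-values cover only the spread among these libraries, which could be technical. Replicate pairs differed by more than sampling noise (chi-square per degree of freedom at least 3.27). No batch is labelled, so a batch and the groups cannot be told apart. Promoter sequences are from RefSeq.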

Additional observations from a re-analysis of the deposited data

How the results depend on the processing

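Relative to VC and NC, 298 of 320 values of the 10 genes under the alternatives kept their call, 15 lost it and 7 gained one, all for Foxo1, Foxo4, Bnip3 and Klf15, and no called value changed sign. Calls among the 10 ranged from 6 to 9 against VC and from 7 to 8 against NC. Calls over all genes ranged from 7862 to 8964 against VC and from 7924 to 8802 against NC. The main fit called 56.0% and 56.3% of 15633 genes. DESeq2 gave no adjusted p for 5 VC to NC values. Same-numbered libraries did not deviate together (correlations -0.06 to 0.04, the same number being the best match in 4 of 18 cases). With the replicate block, 9 genes were called against VC, 8 against NC and 0 for VC against NC, Foxo4 being the one gained. The same fit called 8592, 8586 and 7 of all genes. For VC against NC edgeR called 9 genes of all (1 higher, 8 lower; 1331 at an unadjusted p under 0.05). It called 98 without the low-count filter, DESeq2 called 28, and 0 to 55 were called when 1 library was left out (0 without NC replicate 1, 55 without NC replicate 2), while upper-quartile scaling gave 0 higher and 8 lower. With library totals alone the median of all genes was -0.05 relative to VC. The ratios kept their sign throughout. With VC alone as control the values were -0.91 (Foxo1 to Foxo3), -0.44 (Foxo1 to Foxo4), 0.47 (Foxo3 to Foxo4) and 0.46 (Fbxo32 to Trim63), and with NC alone -0.99, -0.54, 0.45 and 0.51. There 3 against 3 allows no exact permutation p under 0.1. With each library left out they ranged from -0.97 to -0.91, -0.61 to -0.39, 0.33 to 0.58 and 0.46 to 0.49. Leaving out an OE_LncFirre library allows no p under 0.0714. Klf15, with the fewest CPM of the 10, had the largest SE. The cause of each changed call was not tested.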
